A study of Mus musculus with 6 samples.

Results

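The Desert hedgehog pathway of the mouse sciatic nerve was followed through 9 genes, chosen by symbol from the 41605 gene rows of the count files. These are the ligand Dhh, the receptor Ptch1, the co-receptors Boc and Gas1, the signal transducer Smo, the transcription factors Gli1, Gli2 and Gli3, and the ligand-binding membrane protein Hhip. Each symbol had 1 row in every library. Single cells were profiled from nerves at postnatal day 1 (P1) and day 60 (P60), with 3 libraries per age, on the 10x Chromium platform, which counts captured RNA molecules by unique molecular identifiers (UMIs) at their 3′ ends. Each library came from male and female mice pooled 1:1. Mice of both ages carried the same alleles on the C57bl/6J background. A P0Cre transgene switched on an eYFP reporter in Schwann cells, and a DsRed transgene ran from the chicken beta actin promoter in all cells. Sorting by FACS kept DsRed-positive events. In the P1 sort a portion of the Schwann cells, recognised by DsRed and eYFP together, was discarded, so the share of Schwann cells was set by the sort and is not compared between ages.

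Hedgehog ligands are secreted, lipid-modified proteins. Without ligand, the receptor Ptch1 keeps Smo inactive. Ligand binding to Ptch1, aided by the co-receptors Boc and Gas1, releases Smo, which acts at the primary cilium and shifts the Gli factors from repressors to activators. Ptch1, Gli1 and Hhip are themselves induced by the signal in many tissues, and Ptch1 and Hhip then bind ligand and limit its reach. In peripheral nerve, Dhh is known as the ligand of Schwann cells, and mice without it form a defective perineurium, the layered sheath around each nerve fascicle.

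The upstream sequences of the ligand, the receptor and the gene with the largest age change are shown, as RefSeq gives them for GRCm38.p6, to place the genes described here. Each holds the 250 bases before the start that the RefSeq table gives, written 5′ to 3′ on the strand of the gene, with every match to the GC box GGGCGG on either strand in capitals. The RefSeq start used for Ptch1 lies inside the gene as GENCODE annotates it, whose first start is farther upstream. None of these bases is in an exon of the annotation.
Dhh, chr15:98898541-98898790, minus strand: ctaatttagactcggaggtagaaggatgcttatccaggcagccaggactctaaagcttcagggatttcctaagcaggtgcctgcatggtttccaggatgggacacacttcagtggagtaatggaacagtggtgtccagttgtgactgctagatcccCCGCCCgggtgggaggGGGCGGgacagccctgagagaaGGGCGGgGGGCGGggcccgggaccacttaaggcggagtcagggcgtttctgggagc
Ptch1, chr13:63565736-63565985, minus strand: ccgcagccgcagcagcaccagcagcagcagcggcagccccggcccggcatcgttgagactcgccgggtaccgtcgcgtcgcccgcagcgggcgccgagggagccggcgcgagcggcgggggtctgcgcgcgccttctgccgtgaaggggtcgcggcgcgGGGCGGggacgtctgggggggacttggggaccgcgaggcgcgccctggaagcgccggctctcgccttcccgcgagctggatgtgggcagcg
Hhip, chr8:80058009-80058258, minus strand: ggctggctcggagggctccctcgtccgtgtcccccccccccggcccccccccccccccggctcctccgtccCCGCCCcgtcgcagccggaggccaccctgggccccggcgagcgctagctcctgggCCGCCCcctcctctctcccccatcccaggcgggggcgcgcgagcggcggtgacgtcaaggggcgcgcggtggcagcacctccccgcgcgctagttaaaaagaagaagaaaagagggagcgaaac
The windows differed in base composition, with 59.6% G and C for Dhh, 78.4% for Ptch1 and 76.0% for Hhip. The GC box had 4 matches upstream of Dhh, 1 upstream of Ptch1 and 2 upstream of Hhip. Of the 7 members with a window in the tables used here, 6 held a GC box, and so did 32.7% of all 32851 windows of this length. The GLI consensus letters GACCACCCA, searched on both strands, were in 0 of the 7 windows and in 0.225% of all windows. The letters TATAAA of the TATA box were in 0 of 7 and in 12.4% of all windows, and the letters ACAAAG, bound by SoxE factors, were in 0 of 7 and in 16.5%. These are descriptions of letters in short windows.

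Cells with 500 to 5000 detected genes were kept, 3495, 4197 and 4043 in P1 replicates 1, 2 and 3 and 3435, 4586 and 4581 in the P60 replicates, and libraries held 20203440 to 30334608 UMIs. Clusters were found without the members and the other genes of the pathway, and were named from marker lists. The classes held 2939 Schwann cells at P1 and 361 at P60, 1861 and 855 endoneurial, 494 and 2454 perineurial, 1909 and 4542 epineurial, 575 and 704 mural, 726 and 1804 endothelial, and 1049 and 1389 immune cells. Of the P1 endoneurial cells, 578 (31.1%) formed 1 cluster led by cell cycle genes. It held all 7 proliferation markers beside 7 endoneurial and 5 perineurial markers. A lead of 2 markers was the smallest that gave a layer name, so its endoneurial name is less firm. A further 335 P1 Schwann and 38 P1 mural cells were in clusters with 7 proliferation markers. Leaving these clusters out was added as an alternative after the data were seen. The mural class joins pericytes of capillaries with the smooth muscle of vessel walls. All 10 Schwann markers were highest in the Schwann class at both ages. The perineurial class held 12 of 12 of its markers highest at P60 but 8 of 12 at P1, with 1 at 0, so the P1 name rests on fewer markers. At P1, 849 fibroblasts took no layer name. The 3 other clusterings used a normalization total of 100000, a second seed, and the pathway genes kept. In that order the P1 epineurial class held 758, 809 and 820 cells, all far fewer than the 1909 here. The P1 perineurial class held 978, 498 and 1189 cells in place of 494. P60 replicate 3 stood apart, with a median of 3627 UMIs per cell against 4982.5 and 5561 in the other P60 libraries and with 16.2% of its cells above 10% mitochondrial counts. It also gave 745 of the 801 cells of an epineurial cluster and 613 of the 673 cells of a perineurial cluster. Any pair of libraries shared 13 to 32 cell barcodes.

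Levels are given as CPM, the UMIs of a gene per 1000000 UMIs summed over the cells of a class in a library, with libraries in the order of replicates 1, 2 and 3. They are compared between classes and ages and not between genes, since 3′ counts depend on how well each transcript is captured. Differences are log2 fold changes ± SE from edgeR's quasi-likelihood test on these sums, with p-values adjusted by the Benjamini-Hochberg method over all genes tested, and a gene is called at an adjusted p under 0.05.

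Dhh (ENSMUSG00000023000, chr15:98891152-98898540 in GRCm38, minus strand) is the ligand of the pathway and was the 1 member higher in Schwann cells than in the other classes at both ages. Its level in Schwann cells was 329, 341 and 348 CPM at P1 and 388, 266 and 195 CPM at P60. The P1 libraries were close together and the P60 libraries spread widely, with the first P60 library above all P1 libraries and the other two lower. Endothelial cells came next, with 27.1, 19.0 and 23.2 CPM at P1 and 19.99, 16.8 and 15.3 CPM at P60, and no other class overlapped with them at either age. Mural cells had 3.99 to 10.1 CPM at P1 and 1.41 to 4.99 CPM at P60. The 3 fibroblast classes were near 0, with 0.874 to 2.48 CPM in endoneurial, 1.33 to 3.17 CPM in perineurial and 1.18 to 2.58 CPM in epineurial cells at P1, and their ranges overlapped.

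Against the mean of the other 6 classes, Dhh was higher in Schwann cells by 6.26 ± 0.073, adjusted p = 1.62e-46 (edgeR) at P1 and by 7.07 ± 0.19, adjusted p = 8.46e-25 at P60, and both calls held under every alternative tried. At P1 all 9 members were called in this comparison, Dhh higher and the other 8 lower, where 70.9% of all genes tested were called, 37.2% higher and 33.7% lower. At P60, 4 of 8 tested members were called, against 30.9% of all genes. The age difference of Dhh in Schwann cells, -0.40 ± 0.18, adjusted p = 0.0867 (edgeR), did not pass the threshold.

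Schwann cells were split by markers into a group named promyelinating or myelinating, cells that wrap or begin to wrap single axons, and a group named immature or non-myelinating. At P1 the myelinating cells held 414, 421 and 439 CPM of Dhh and the immature or non-myelinating cells 242, 250.5 and 247 CPM, groups that did not overlap. The difference was 0.97 ± 0.044, adjusted p = 1.13e-23 (edgeR), a call kept with no filter on low counts and without any one library, the alternatives planned for subtypes, and also without the 335 cells of the cluster with 7 proliferation markers, which were in the immature or non-myelinating group (0.95). Another cluster of that group, 188 cells led by the cell cycle genes Rrm2 and Ccne2, held 2 proliferation markers and was not left out. A further 531 P1 Schwann cells, a cluster led by Pou3f1, a factor of promyelinating Schwann cells, met the marker rule of neither group and were left out of both. They held 341, 346 and 337 CPM of Dhh, between the groups in every library. In this comparison 6 of 6 tested members were called, against 57.6% of all genes. At P60 the values were 413, 283 and 247 CPM in myelinating and 351, 248 and 159 CPM in immature or non-myelinating cells, with overlapping ranges and a difference of 0.51 ± 0.21, adjusted p = 0.0817, from only 154 and 207 cells. There 2 members, Dhh and Ptch1, were tested, of which edgeR called 0 (1 had an unadjusted p under 0.05), where 28.4% of all genes were called. From P1 to P60 Dhh fell in the myelinating cells (-0.44 ± 0.14, adjusted p = 0.0297, edgeR), a call lost when any one P1 library was left out (-0.27 to -0.24) and without P60 replicate 3 (-0.40).

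**Figure D1:**
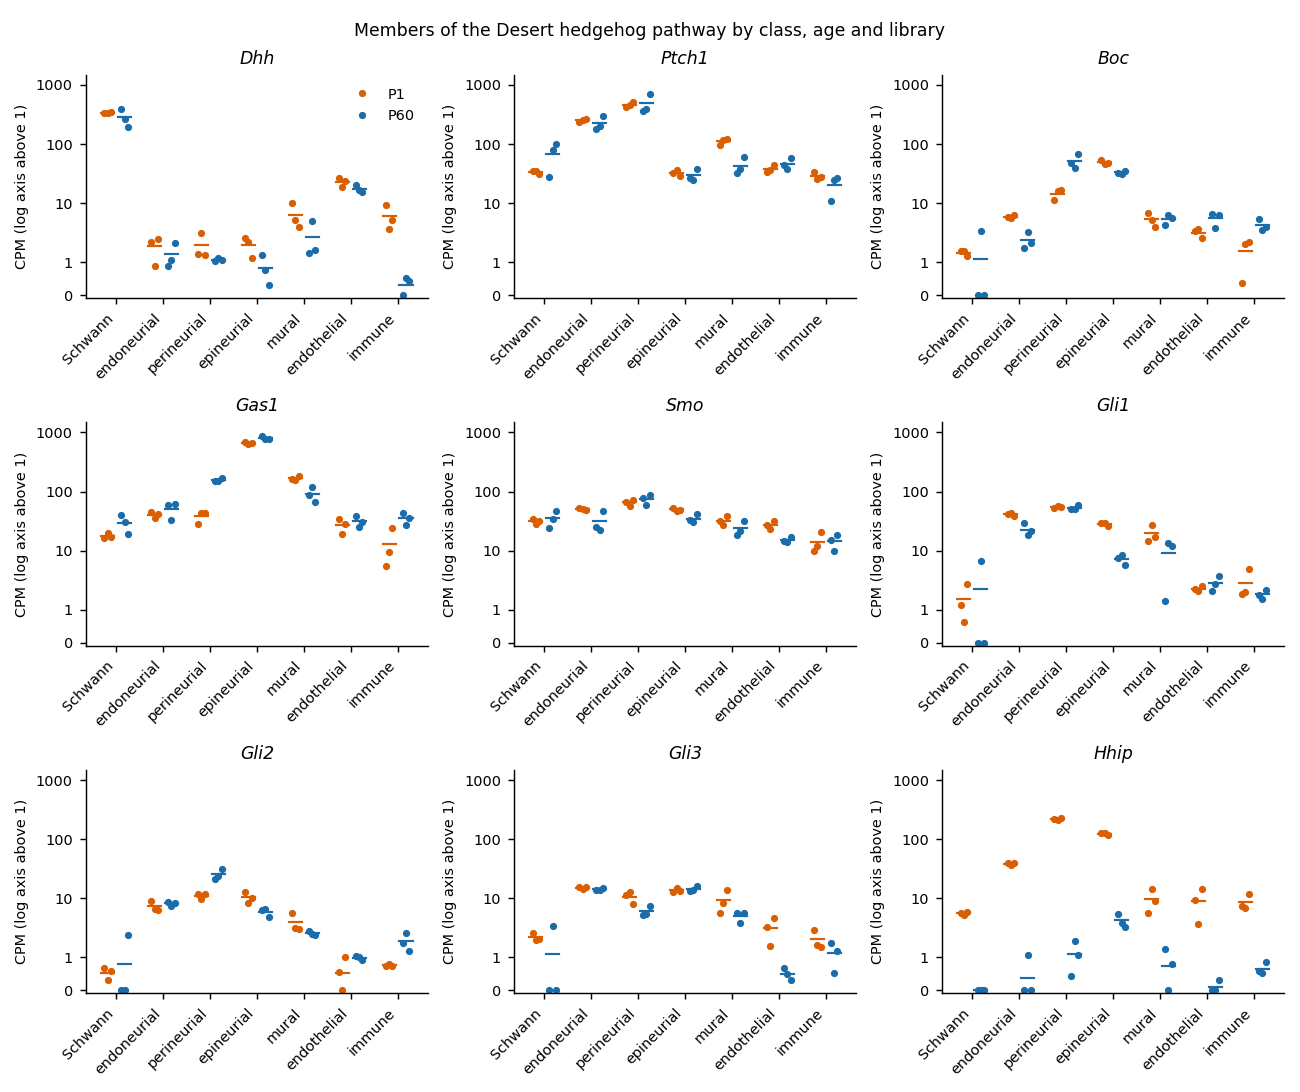
Level of each of the 9 members in 7 cell classes at P1 and P60, in CPM on a log axis above 1, with 1 point per library and a line for the mean of 3 libraries. Dhh stands out in Schwann cells, at 329 to 348 CPM at P1, and Ptch1 in perineurial cells, at 424 to 513 CPM.

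The exons of Dhh share 546 bases with the same-strand gene Rhebl1 and 1107 bases with the antisense gene Gm49442, which was not analysed here, and reads in those bases cannot be assigned to Dhh alone.

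After each cell was thinned to 1500 UMIs, so that depth was equal, a Dhh UMI was found in 35.5, 40.9 and 40.0% of Schwann cells at P1 and in 39.2, 25.5 and 24.3% at P60 (unthinned means 79.4% and 42.4%). At P60, 16 Schwann cells were shallower and were left out. Before thinning, the median of a library was 5966 to 6462 UMIs per Schwann cell at P1 and 1883 to 2668.5 at P60, and 6080.5 to 7272 and 3559 to 4013 per immune cell. Immune cells, which should lack Dhh, held it in 0.267 to 1.15% of cells at P1 and in 0% in each P60 library. Both ages overlapped in Schwann cells (exact permutation test, two-sided, p = 0.2, n = 3 libraries per age), and 3 against 3 libraries cannot give a p below 0.1.

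Ptch1 (ENSMUSG00000021466, chr13:63508328-63573598, minus strand), the receptor and itself a target of the signal, differed widely between the sheaths. Perineurial cells had 424, 459 and 513 CPM at P1 and 362, 387 and 716 CPM at P60. Endoneurial cells, the fibroblasts among the axons, had 236, 256 and 266 CPM and 180.4, 205 and 300.2 CPM. Epineurial cells, outside the perineurium, had 32.1, 36.3 and 28.5 CPM and 26.4, 24.5 and 38.5 CPM. At both ages every perineurial library lay above every endoneurial one, and every endoneurial one far above every epineurial one. The range of epineurial Ptch1 overlapped with those of Schwann and immune cells at P1.

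Perineurial cells exceeded epineurial cells by 3.63 ± 0.082, adjusted p = 1.12e-33 (edgeR) at P1 and by 3.89 ± 0.11, adjusted p = 1.90e-24 at P60. Endoneurial cells exceeded epineurial cells by 2.80 ± 0.078, adjusted p = 3.23e-31 and by 2.89 ± 0.13, adjusted p = 1.01e-18. These calls held under every alternative, although the size of the P1 differences moved with the clustering, over 3.47 to 4.34 for perineurial and 2.68 to 3.59 for endoneurial cells. The difference between perineurial and endoneurial cells was 0.83 ± 0.058, adjusted p = 4.76e-16 at P1 and 0.99 ± 0.11, adjusted p = 2.56e-09 at P60. With age Ptch1 did not pass the threshold in endoneurial (-0.077 ± 0.15), perineurial (0.13 ± 0.21) or epineurial cells (-0.17 ± 0.18).

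Within the P60 perineurial class, 1 cluster of 461 cells, with cells from all 3 libraries, had Ptch1 among its leading genes. This cluster was singled out after its values were seen, and no test was made. Its Ptch1 level was 1649.6 to 2728 CPM, whereas the other perineurial cells had 212 to 412 CPM, and within each library it was 6.62 to 8.15 times as high. Gli1 followed, with 106 to 118 CPM against 41.8 to 49.5 CPM, and so did Gli3, with 12.0 to 18.0 CPM against 3.72 to 6.29 CPM. Gas1 went the other way, with 10.0 to 16.8 CPM against 166 to 196 CPM. The median share of mitochondrial counts was 12.3% in this cluster and 3.55% and 5.30% in the other 2 perineurial clusters, and its part in these values was not tested. Those 2 clusters were split by library, with 485, 804 and 31 cells and 17, 43 and 613 cells in P60 replicates 1, 2 and 3. The cluster led by Ptch1 held 92, 179 and 190 cells. Without the cluster, the P60 difference in Ptch1 between perineurial and endoneurial cells was 0.20 and not called. Since the cluster was chosen for its high Ptch1, leaving it out lowers the P60 perineurial level by construction. That value is no independent check of the difference. Under a clustering with a normalization total of 100000 the difference was 0.24 and not called. There a P60 cluster of 445 cells with Ptch1 among its leading genes took no name.

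Boc (ENSMUSG00000022687, chr16:44485049-44558897, minus strand) and Gas1 (ENSMUSG00000052957, chr13:60174405-60177365, minus strand) present the ligand to Ptch1, and their order across the sheaths was not that of Ptch1. Boc was highest in epineurial cells at P1, with 52.8, 45.2 and 48.6 CPM against 11.1, 15.9 and 16.6 CPM in perineurial and 5.82, 5.59 and 6.28 CPM in endoneurial cells. At P60 epineurial cells had 32.9, 31.5 and 35.3 CPM, perineurial cells 48.5, 39.7 and 69.0 CPM and endoneurial cells 1.75, 3.22 and 2.11 CPM. Perineurial libraries thus lay under the epineurial ones at P1 and above them at P60, while endoneurial cells were lowest of the sheath cells at both ages. The P1 order depended on the clustering, since the difference between perineurial and epineurial cells, -1.97, was -0.04 and -0.03 and not called with a normalization total of 100000 and with pathway genes kept. The P60 difference, 0.51, was not called under DESeq2 (0.34). Boc rose with age in perineurial cells by 1.90 ± 0.25, adjusted p = 4.07e-05 (edgeR), and over the alternatives this rise was 0.63 to 2.07. It fell in epineurial cells (-0.60 ± 0.12, adjusted p = 0.00191), but with each of 3 other clusterings the value was 0.04 and the call was lost. In endoneurial cells it fell (-1.26 ± 0.43, adjusted p = 0.0275), a call lost under DESeq2, with the replicate number as a block (-1.28) and without P60 replicate 1 (-1.11) or replicate 3 (-1.16). Without the proliferating cluster P1 endoneurial cells had 2.10, 1.37 and 2.80 CPM, which overlaps with P60, and Boc did not pass the filter for a test.

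Gas1 was highest in epineurial cells, with 686, 638 and 669.6 CPM at P1 and 862, 776 and 764 CPM at P60. Endoneurial cells had 44.99, 35.7 and 41.6 CPM and 60.4, 33.3 and 61.3 CPM. Perineurial cells had 28.5, 42.8 and 42.6 CPM and 153, 149 and 171 CPM. No epineurial library overlapped with any other class, and the perineurial libraries of the ages did not overlap. Endoneurial cells were lower than epineurial cells (-4.19 ± 0.083, adjusted p = 1.68e-36, edgeR) at P1 and (-3.98 ± 0.14, adjusted p = 5.86e-21) at P60. Gas1 rose with age in perineurial cells by 2.12 ± 0.16, adjusted p = 3.24e-07, but this value turned to -0.18 when the pathway genes took part in the clustering and was 0.30 with a normalization total of 100000, settings in which the P1 perineurial class was larger. In epineurial cells the age difference was 0.22 ± 0.092, adjusted p = 0.0691. The proliferating cluster held most of the endoneurial Gas1 at P1, at 74.1 to 96.0 CPM against 13.7 to 18.1 CPM in the other endoneurial cells. Without it the P1 difference from epineurial cells was -5.52, and endoneurial Gas1 rose with age by 1.79 (adjusted p = 1.08e-05, edgeR), a change that was not called over the whole class. The single exon of Gas1 shares 589 bases with the antisense gene Gm48488, and the strand setting of the counting is not given in the sources used here.

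**Figure D2:**
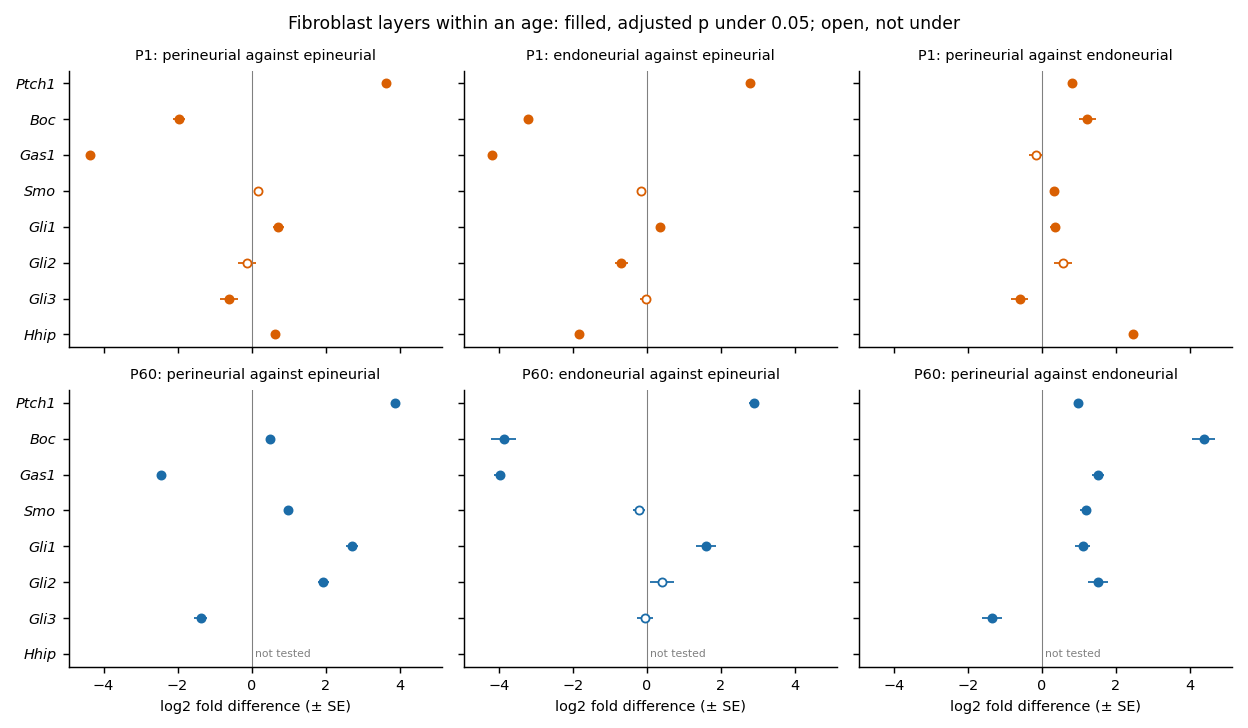
Differences of the members other than Dhh between the sheath classes within an age, as log2 fold change ± SE from edgeR, at P1 and P60, with called members filled. Ptch1 lies above 0 in perineurial and endoneurial against epineurial cells, and Gas1 lies below 0 in both.

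Smo (ENSMUSG00000001761, chr6:29735503-29761365, plus strand), the transducer that Ptch1 restrains, was found in every class. Perineurial cells had 66.1, 57.9 and 72.6 CPM at P1 and 77.0, 58.5 and 88.5 CPM at P60. Endoneurial cells had 51.8, 49.98 and 48.3 CPM and 25.4, 22.6 and 46.5 CPM, and epineurial cells had 53.4, 47.8 and 48.6 CPM and 32.8, 30.8 and 41.3 CPM. Perineurial libraries lay above those of every other class at both ages, and endoneurial and epineurial ranges overlapped. RNA that escapes from cells can be counted in droplets of other classes, and it then carries the genes of its source in 1 ratio. Schwann cells had 28.6 to 34.2 CPM at P1 and 24.0 to 47.1 CPM at P60, which is 58.0 to 61.5 times and 9.86 to 30.9 times what carried fibroblast RNA would give with Dcn as a tracer. Smo fell with age in epineurial cells (-0.56 ± 0.13, adjusted p = 0.00593, edgeR) and in endoneurial cells (-0.61 ± 0.20, adjusted p = 0.0203). The epineurial call was lost under a normalization total of 100000 (-0.46) and a second clustering seed (-0.44). The endoneurial call was lost without any one P1 library (-0.62 to -0.55) and without P60 replicate 1 (-0.50) or replicate 2 (-0.48).

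Gli1 (ENSMUSG00000025407, chr10:127329882-127341974, minus strand), the activator whose own transcript reports the signal in many tissues, was highest in perineurial cells. These had 52.8, 56.3 and 54.6 CPM at P1 and 49.8, 50.2 and 58.5 CPM at P60. Endoneurial cells had 41.1, 42.6 and 39.1 CPM and 28.9, 18.3 and 21.1 CPM, and epineurial cells had 29.8, 29.3 and 26.2 CPM and 7.65, 8.36 and 5.68 CPM. The 3 classes did not overlap at either age, and the endoneurial and epineurial libraries of the ages did not overlap. Gli1 fell in epineurial cells (-1.9998 ± 0.18, adjusted p = 8.49e-06, edgeR) and in endoneurial cells (-0.74 ± 0.18, adjusted p = 0.00376), calls that held under every alternative. The epineurial fall was -1.27 to -1.21 in 3 other clusterings, and the endoneurial one was -0.54 without the proliferating cluster. In perineurial cells the age difference was 0.011 ± 0.15, adjusted p = 0.96. Schwann cells had 30 UMIs of Gli1 in all P1 libraries together and 2 at P60. The exons of Gli1 share 62 bases with the antisense gene Arhgap9 and 265 with Gm47200.

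Gli2 (ENSMUSG00000048402, chr1:118834132-119053619, minus strand) and Gli3 (ENSMUSG00000021318, chr13:15463235-15730026, plus strand), which serve mainly as activator and repressor, were low throughout. Gli2 in perineurial cells was 11.8, 9.52 and 12.0 CPM at P1 and 21.4, 23.5 and 31.5 CPM at P60. In epineurial cells it was 12.6, 8.41 and 10.1 CPM and 6.30, 6.60 and 4.89 CPM, and in endoneurial cells 6.28 to 8.90 CPM and 7.52 to 8.76 CPM. Perineurial and epineurial ranges overlapped at P1 and lay apart at P60. Gli2 rose with age in perineurial cells by 1.24 ± 0.24, adjusted p = 7.28e-04 (edgeR), a call kept under every alternative, and fell in epineurial cells (-0.83 ± 0.22, adjusted p = 0.0106). The epineurial call was lost under 3 other clusterings (-0.72 to -0.58) and without P1 replicate 1 (-0.67). Gli3 was 15.6, 14.3 and 15.6 CPM in endoneurial cells at P1 and 14.0, 14.0 and 14.8 CPM at P60. In perineurial cells it was 11.1, 12.7 and 7.99 CPM and 5.21, 5.31 and 7.43 CPM. Gli3 fell in perineurial cells (-0.77 ± 0.30, adjusted p = 0.0458), a call lost under 7 alternatives, among them DESeq2 and leaving out P1 replicate 1 or 2 or P60 replicate 1 or 2, with values of -1.18 to -0.63 over all alternatives. Gli3 shares 188 exonic bases with the antisense transcript Gm6556.

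Hhip (ENSMUSG00000064325, chr8:79965851-80058006, minus strand), which binds ligand without passing on a signal, was present in sheath cells at P1 and near 0 at P60. Perineurial cells had 222, 214 and 224 CPM at P1 and 0.416, 1.86 and 1.09 CPM at P60. Epineurial cells had 125, 125 and 117 CPM and 5.51, 3.85 and 3.31 CPM. Endoneurial cells had 39.5, 36.2 and 39.9 CPM and a single UMI in all P60 libraries together. Of the 711 endoneurial UMIs at P1, 571 came from the proliferating cluster, at 79.8 to 100.5 CPM, and the other endoneurial cells had 12.3, 11.3 and 11.2 CPM. The ages were far apart in each class, and at P1 the 3 classes did not overlap. From pooled counts, Hhip was 178 times as high at P1 as at P60 in perineurial cells (exact 95% interval 115 to 288), 28.3 times in epineurial cells (23.2 to 34.8) and 117 times in endoneurial cells (20.8 to 4609). Without the proliferating cluster the endoneurial ratio was 34.9 (6.16 to 1388). In Schwann cells it was 5.59, 5.23 and 5.92 CPM at P1 and 0 in every P60 library. With a floor of 3 counts over the P60 group, the pooled P1 level was 1.80 times that floor. The exact 95% interval reached down to 1.44 times as high at P1 as at P60. These intervals and floors cover counting error only.

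Hhip fell with age in perineurial (-7.39 ± 0.25, adjusted p = 3.11e-10, edgeR), epineurial (-4.87 ± 0.18, adjusted p = 2.18e-08) and endoneurial cells (-6.65 ± 0.48, adjusted p = 1.14e-07), and the direction and the call held under every alternative in all 3 classes. Its size did not, since the epineurial fall was -3.17 to -3.09 in 3 other clusterings, and the endoneurial one was -4.86 without the proliferating cluster. Without P60 replicate 2, which held the single endoneurial UMI, the endoneurial value was -10.30 and the perineurial one -8.06. The order of the classes at P1 was less firm. Endoneurial cells were lower than epineurial cells (-1.83 ± 0.082, adjusted p = 2.00e-23), but this difference was -0.09 to -0.03 and not called with 3 other clusterings, and -3.53 without the proliferating cluster. The 849 P1 fibroblasts without a layer name had 305, 303 and 312 CPM, above every named class. They joined unlike clusters, with a mean of 362 CPM in 677 cells and 116 CPM in 172 cells. Hhip shares 175 exonic bases with the antisense RNA Gm27820.

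Mural cells, which lie outside the sheath proper, carried receptor and co-receptor. Ptch1 was 95.7, 116 and 121 CPM at P1 and 32.4, 37.4 and 59.8 CPM at P60, and Gas1 was 162, 157 and 186 CPM and 88.8, 118 and 67.1 CPM. The libraries of the ages did not overlap for either gene. Ptch1 fell (-1.23 ± 0.24, adjusted p = 0.00185, edgeR) and Gas1 (-0.84 ± 0.18, adjusted p = 0.00387), and both calls held under every alternative. Gli1 was 14.6, 27.7 and 17.0 CPM and 1.41, 13.7 and 12.1 CPM, an overlap, with -0.95 ± 0.47, adjusted p = 0.146. Measured Ptch1 in mural cells was 19.8 to 35.6 times what carried fibroblast RNA would give at P1 and 6.30 to 7.59 times at P60.

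Pericytes and vascular smooth muscle cells differed. At P1 Ptch1 was 136, 147 and 162 CPM in pericytes and 7.20, 27.8 and 7.50 CPM in smooth muscle, a gap of -3.30 ± 0.32, adjusted p = 4.80e-09 (edgeR) that held under the same alternatives, with the widest value, -4.20, without P1 replicate 2. At P60 pericytes had 48.5, 52.6 and 102.2 CPM and smooth muscle 21.4, 20.8 and 40.2 CPM, with a difference of -1.03 ± 0.25, adjusted p = 0.0044, which was -0.99 and not called without P60 replicate 3. Gas1 at P1 was 170.4, 162 and 211 CPM in pericytes and 144, 143 and 116 CPM in smooth muscle, where the difference of -0.33 ± 0.17, adjusted p = 0.187 did not pass the threshold. At P60 pericytes had 184, 182 and 166 CPM and smooth muscle 23.7, 49.5 and 21.3 CPM, far apart and lower in smooth muscle (-2.29 ± 0.24, adjusted p = 8.67e-07). Ptch1 fell with age in pericytes (-1.12 ± 0.25, adjusted p = 0.00231), and Gas1 fell in smooth muscle (-2.06 ± 0.30, adjusted p = 1.19e-04). The mural share of smooth muscle was 153 of 575 cells at P1 and 395 of 704 at P60, so the change of the whole class mixes both. In the comparison of the subtypes 1 of 3 tested members was called at P1, against 19.5% of all genes, and 3 of 3 at P60, against 32.8%.

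**Figure D3:**
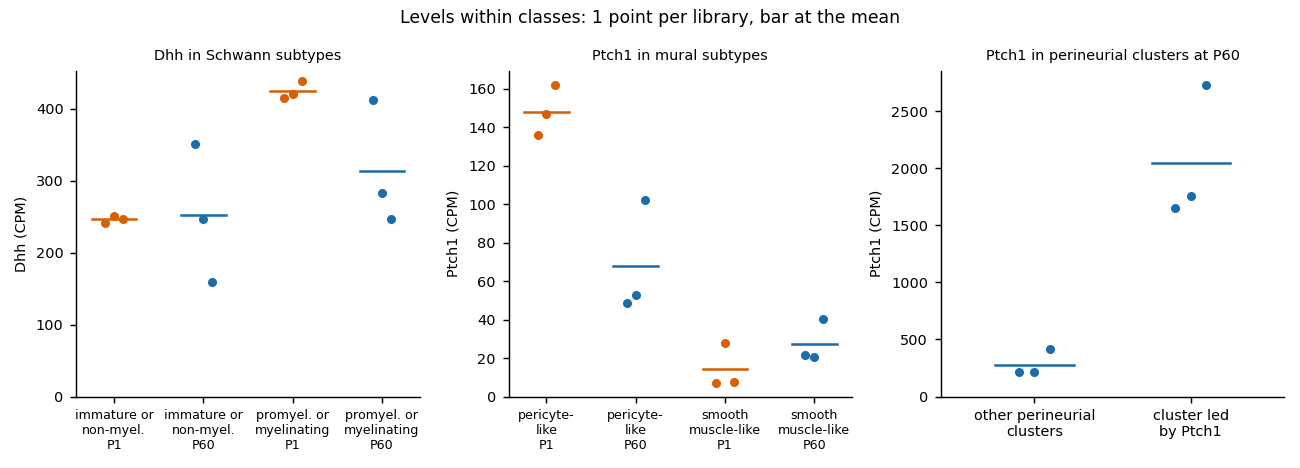
Levels in CPM, with 1 point per library and a bar at the mean, of Dhh in the Schwann subtypes and Ptch1 in the mural subtypes at both ages, and of Ptch1 in the P60 cluster it leads against the other perineurial clusters. Dhh is higher in myelinating cells at P1, Ptch1 is higher in pericytes, and the cluster led by Ptch1 lies at 1649.6 to 2728 CPM.

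Ptch1 was also present in Schwann cells themselves, at 34.9, 35.5 and 31.4 CPM at P1 and 28.0, 78.3 and 98.8 CPM at P60. The P60 libraries were far apart, with the first under and the others above the P1 range. The level was 15.1 to 20.8 times at P1 and 5.06 to 12.1 times at P60 what carried fibroblast RNA would give. Ptch1 rose by 1.04 ± 0.27, adjusted p = 0.00664 (edgeR), but the value was 0.57 without P60 replicate 3 and 0.71 when pathway genes took part in the clustering, and neither was called. In immature or non-myelinating cells the difference was 1.28 ± 0.35, adjusted p = 0.00795, and it was 0.40 and not called without P60 replicate 3.

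The counts of members called between sheath classes stand here beside the share of all genes called. At P1, 6 of 9 members were called between perineurial and endoneurial cells, where 30.3% of all genes were called. Between perineurial and epineurial cells 6 of 9 were called, against 41.2%, and between endoneurial and epineurial cells 6 of 9, against 56.8%. At P60 the counts were 7 of 8 against 44.5%, 7 of 8 against 58.7% and 4 of 8 against 33.4%, in the same order. Mural cells against the 3 fibroblast classes gave 8 of 9 at P1, against 44.1%, and 7 of 8 at P60, against 43%. With counts this small the shares of members and of all genes were not compared by a test.

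With age, 2 of 5 tested members were called in Schwann cells, where 39% of all genes were called. The counts were 4 of 8 in endoneurial cells, against 48.8%, 5 of 8 in perineurial cells, against 51.2%, and 5 of 8 in epineurial cells, against 47.3%. In mural cells 2 of 4 were called, against 34.2%, in endothelial cells 1 of 4, against 40.1%, and in immune cells 2 of 4, against 37.5%. These shares lie near those of all genes and are no result about the members. The directions were as follows. All 4 called members fell in endoneurial cells (Smo, Gli1, Hhip and Boc), where 25.7% of all genes fell, although without the proliferating cluster the 4 calls were Smo, Gli1 and Hhip lower and Gas1 higher. All 5 fell in epineurial cells (Smo, Gli1, Gli2, Hhip and Boc), where 22.5% did. In perineurial cells Gli2, Boc and Gas1 rose and Gli3 and Hhip fell, where 26.6% of all genes rose and 24.6% fell. In endothelial cells Smo fell (-0.84 ± 0.19, adjusted p = 0.00381, edgeR), and in immune cells Hhip fell (-3.54 ± 0.50, adjusted p = 2.13e-04) and Gas1 rose by 1.47 ± 0.39, adjusted p = 0.0106, at 27.0 to 43.3 CPM at P60. Carried fibroblast RNA would give immune cells 31.6 to 40.0 CPM of Gas1 at P60, so the measured level was 0.853 to 1.14 times that, and measured immune Hhip was 1.68 to 1.82 times the carried level at P1. The myelinating and immature Schwann subtypes had 2 of 4 and 1 of 4 called, against 28.9% and 33.3%, and pericytes and smooth muscle 1 of 4 and 1 of 1, against 29.9% and 36.1%.

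**Figure D4:**
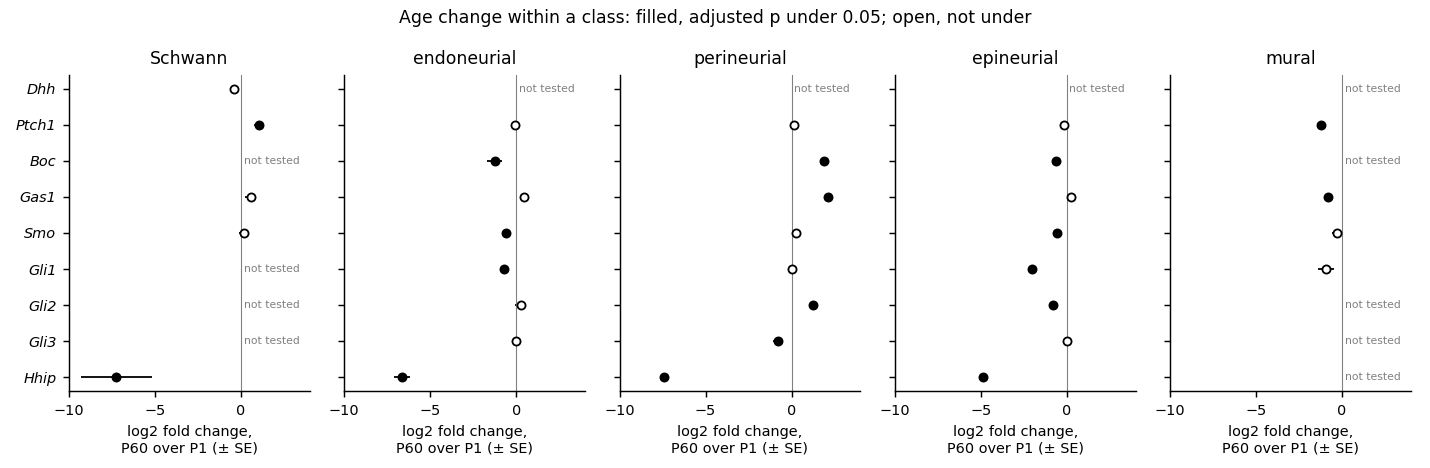
Age difference of the tested members in 5 classes as log2 fold change ± SE (P60 against P1, edgeR), with called members filled. Hhip falls in the 3 fibroblast classes, and Boc, Gas1 and Gli2 lie above 0 in perineurial cells.

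Whether the age change itself differed between classes was tested in 1 fit over all libraries and classes. Perineurial cells differed from epineurial cells for 7 of 9 members, where 30.9% of all genes were called, with Smo at 0.77 ± 0.16, Gli1 at 1.97 ± 0.24, Gli2 at 2.03 ± 0.26, Boc at 2.45 ± 0.21, Gas1 at 1.88 ± 0.22, Gli3 at -0.79 ± 0.29 and Hhip at -2.51 ± 0.36. Perineurial cells differed from endoneurial cells for 5 of 9, against 27.5%, the largest being Boc (3.19 ± 0.46, adjusted p = 2.78e-07, edgeR) and Gas1 (1.74 ± 0.28, adjusted p = 1.80e-06). Endoneurial cells differed from epineurial cells for Gli1 (1.18 ± 0.30, adjusted p = 0.00212) and Gli2 (1.03 ± 0.35, adjusted p = 0.0269), 2 of 9 against 29.1%. The Gas1 values of perineurial cells reversed in 2 other clusterings, to -0.38 and -0.79 against epineurial and to -0.06 and -0.61 against endoneurial cells. Without the proliferating cluster 2 of 9 members differed between perineurial and endoneurial cells, Smo (1.02) and Boc (1.84). Against epineurial cells the calls for Boc, Gli1 and Hhip held under every alternative but over wide ranges, 0.53 to 2.69, 0.90 to 2.21 and -4.61 to -1.96.

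The mural age change differed from the epineurial one for Ptch1 (-1.21 ± 0.22, adjusted p = 3.75e-05, edgeR) and Gas1 (-1.16 ± 0.22, adjusted p = 6.68e-05), 2 of 9 against 19.8% of all genes. In this contrast size factors of another kind (RLE) moved the median of all genes by 0.101, and relative to that median Ptch1 was -1.13 under both scalings and Gas1 -1.08 and -1.07. Over all genes the calls were 1180 higher and 1672 lower with TMM, 1462 and 1349 with RLE, and 1310 and 1168 without P60 replicate 2. Schwann cells differed from the 3 fibroblast classes for Ptch1 (0.81 ± 0.23, adjusted p = 0.00718), 1 of 9 against 24.5%. There RLE moved the median of all genes by 0.245, Ptch1 relative to it was 0.96 and 0.97, and the calls over all genes were 1310 higher and 2219 lower with TMM and 1803 and 1268 with RLE. The Schwann call was lost without P60 replicate 2 or 3 and in 3 other clusterings, with values of 0.024 to 1.07 over all alternatives.

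The other pathway genes were taken from 5 lists with 47 genes in all, covering other ligands and ligand release, other receptor-side genes, transduction from Smo to Gli, transport in the primary cilium, and genes often used as targets. In perineurial cells 38 were tested, of which 11 rose and 8 fell with age (edgeR). In epineurial cells 35 were tested and 7 rose and 8 fell, and in endoneurial cells 36 were tested and 9 rose and 5 fell. In Schwann cells 4 of 31 rose and 4 fell, and in mural cells 3 of 18 rose and 2 fell. The shares of all genes called in these classes are given above with the members. For the genes of these lists only the main analysis is given. How far their values depend on the clustering or on the proliferating clusters was not tested. Of the other ligands, Shh had 0 UMIs in every class at both ages, and Ihh had at most 3 UMIs in any class, found in Schwann cells at P1.

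Among the receptor-side genes, Gpc3, a glypican that binds Hedgehog ligand, rose in endoneurial cells by 1.01 ± 0.11, adjusted p = 7.98e-06 (edgeR) and fell in epineurial cells (-1.43 ± 0.11, adjusted p = 3.17e-06). Scube2, which helps to release ligand, rose in perineurial cells from 0.695, 1.59 and 0.666 CPM to 15.4, 12.2 and 8.74 CPM (3.68 ± 0.49, adjusted p = 4.13e-05). Of the target list, Ccnd1, a cell cycle gene, fell in endoneurial (-2.28 ± 0.11), perineurial (-1.93 ± 0.11), epineurial (-1.12 ± 0.12) and mural cells (-0.95 ± 0.20), and Foxl1 fell in endoneurial (-7.90 ± 1.13) and perineurial cells (-2.44 ± 0.36). Foxl1 was 0 in every P60 endoneurial library, so its fitted value there is no bound. All these values are for whole classes. The proliferating cluster made up 31.1% of the P1 endoneurial cells, and its part in the endoneurial changes of these genes was not tested.

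Of the 16 transduction genes, Spop, an adaptor that targets Gli proteins for degradation, rose in perineurial (1.09 ± 0.14), endoneurial (0.92 ± 0.11), epineurial (0.84 ± 0.12) and mural cells (1.13 ± 0.14). Evc2, a cilium protein next to Smo, rose in Schwann cells, from 21.5, 26.0 and 22.1 CPM at P1 to 116, 54.5 and 84.7 CPM at P60 (1.77 ± 0.24, adjusted p = 4.98e-05, edgeR). Of the 10 genes of cilium transport, 4 of 10 tested rose in perineurial cells and none fell, 4 rose and 1 fell in epineurial cells, 2 rose in endoneurial cells, and 1 of 9 rose in Schwann cells. Wdr35 and Ift172 led in perineurial cells, at 1.55 ± 0.34 and 1.48 ± 0.30. The median log2 change of the tested cilium genes was 0.55 in perineurial and 0.40 in epineurial cells, where the medians of all genes tested were 0.038 and 0.024. It was 0.53 in endoneurial, 0.33 in Schwann, 0.40 in immune, 0.045 in endothelial and -0.19 in mural cells, where all genes tested had medians of -0.032 to 0.018, and in endothelial cells 2 rose and 2 fell.

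The share of cells with a UMI was also compared between ages, thinned to equal depth. Hhip was found in 26.2, 29.3 and 28.9% of perineurial cells at P1 and in 0, 0.487 and 0% at P60. Ptch1 was found in 47.6, 56.7 and 52.0% and 33.8, 38.5 and 49.6%, which overlap. Over the 7 classes and 9 members, 22 of 63 shares did not overlap between the ages. Beside the counts stand the shares of genes that did not overlap, among genes found in 1% or more of the cells of the class in some library. By class the counts were 4 in endoneurial cells (44.8%), 3 in perineurial (42.2%), 3 in epineurial (47.1%), 2 in Schwann (37.2%), 2 in mural (30.1%), 5 in endothelial (34.5%) and 3 in immune cells (35%). All 9 members were counted in each class without that limit, so the 2 sets are not alike. No share can pass 0.05 in the exact permutation test with 3 libraries per age, and the smallest p it allows is 0.1.

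The genes whose levels ran most closely with a member were sought among 11008 genes over the 42 sums of a class in a library, as a Pearson correlation of log2(CPM + 10). The sums of a library share its depth and its animals, and these values are descriptions. Dhh was followed most closely by Ttyh1 (r = 0.973), Fign, Nrcam, Ttc9 and Frmd3. Ptch1 was followed by Foxd2 (0.911), Tenm2, Dleu7, Foxc2 and Rnf24, of which Tenm2 and Dleu7 were among the markers that name the perineurial class. Gli1 was followed by Pkdcc (0.909), Gli2 by the Wnt receptor Fzd2 (0.944), Smo by Ankrd39 (0.871), Hhip by the growth factor Igf2 (0.927), Boc by Ptgis (0.933) and Gas1 by Anpep (0.915). Gli3 stayed under 20 CPM in every sum and was not entered.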

How the data were processed

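Per the labels and the submitters' processing notes, Cell Ranger 2.0.2 and GRCm38.p5 were used, and the authors deposited raw UMI counts per gene and barcode for each of the 6 libraries, with no normalization and no pooling of libraries. The strand setting of the counting is not given in the sources used here. The members and the gene lists were chosen with earlier results of these data known, and the thresholds for naming clusters were set after the data were seen.

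Barcodes with 500 to 5000 genes were kept, which leaves other cell numbers than those the study states. Cells of each age were clustered with Seurat 5.3.0 (R 4.3.3), with the pathway genes left out of the variable genes. A marker counted for a cluster when it was at or above 0.25 of its level in the highest cluster and was detected in a fraction of 0.1 or more of its cells, and a name needed 3 such markers. Clusters with a median above 15% mitochondrial counts, mixed clusters and fibroblasts without a layer entered no class. Raw counts were summed per library and class (at least 10 cells) and tested with edgeR 4.0.16 (TMM, filterByExpr, quasi-likelihood), with the library as a block within an age. Libraries, each a pool of mice, were the replicates, and cells were not. DESeq2 1.42.0 with RLE size factors, other clusterings, no filter on low counts and leaving out each library were alternatives, as was leaving out the cells with the highest doublet scores (scanpy 1.11.5, 2.74% to 3.67% of each library). Leaving out the P1 clusters with 3 or more proliferation markers and the P60 cluster led by Ptch1 was added after the data were seen. The main analysis removed no doublets beyond the limit of 5000 genes. Shares of cells were tested by exact permutation (scipy 1.17.1). Counts drawn with known changes were recovered at an absolute log2 change of 1 for 56% of genes (endoneurial age change, 11608 genes), 56% (mural age change, 8252) and 75% (P1 endoneurial against epineurial, 12541), and at 2 for 91%, 87% and 98%. The named genes were all 9 members and, from each other list, at most 2 called genes per comparison with the largest change, of which those named here are a part. For each member at 20 CPM or more in some sum, the 5 genes with the highest correlation were named. Genes were placed by identifier in GENCODE M21 (GRCm38), and windows upstream came from RefSeq (GRCm38.p6), with 7 of 9 members matched.

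Same-numbered libraries of the ages were compared to see whether numbers pair them, and their deviations correlated at -0.082 to 0.076. Values this small do not decide whether the numbers pair the libraries, and the main age tests used no pairing.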

Additional observations from a re-analysis of the deposited data

Results flagged for a closer look

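The age change of several members differed between classes by the test of that difference (edgeR, 1 fit over all libraries and classes), and each value is a difference of 2 log2 changes. Endoneurial minus epineurial cells gave 1.18 for Gli1 and 1.03 for Gli2. Perineurial minus epineurial cells gave 0.77 for Smo, 1.97 for Gli1, 2.03 for Gli2, -0.79 for Gli3, -2.51 for Hhip, 2.45 for Boc and 1.88 for Gas1. Perineurial minus endoneurial cells gave 0.89 for Smo, 0.79 for Gli1, 1.00 for Gli2, 3.19 for Boc and 1.74 for Gas1. Mural minus epineurial cells gave -1.21 for Ptch1 and -1.16 for Gas1, and Schwann cells minus the 3 fibroblast classes gave 0.81 for Ptch1.

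Of the 17 differences, 9 were called under every alternative. Those not kept under all were Gli1 and Gli2 of endoneurial against epineurial cells, Gli3 and Gas1 of perineurial against epineurial cells, Gli1, Gli2 and Gas1 of perineurial against endoneurial cells, and Ptch1 of Schwann cells. The range over the alternatives was 0.41 to 1.43 and 0.79 to 1.17 for the first 2, 0.49 to 1.08 for Gli1 and 0.70 to 1.19 for Gli2 of perineurial against endoneurial cells, and -1.09 to -0.51 for Gli3 of perineurial against epineurial cells. Differences that kept their call also moved, over 0.53 to 2.69 for Boc, 0.90 to 2.21 for Gli1 and -4.61 to -1.96 for Hhip of perineurial against epineurial cells, 1.84 to 3.71 for Boc of perineurial against endoneurial cells and -1.98 to -1.07 for Ptch1 of mural cells.

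At P1, cells that entered no class also held members at mean levels above the mean of every named class, some by little. The cells of clusters with a high mitochondrial share, 921 cells, had mean levels of 604 CPM for Ptch1, 68.7 CPM for Smo, 71.3 CPM for Gli1, 18.1 CPM for Gli2, 34.4 CPM for Gli3 and 220.3 CPM for Hhip, each over 3 libraries. The 849 fibroblasts without a layer name had 65.6 CPM for Smo, 13.0 CPM for Gli2, 307 CPM for Hhip and 53.7 CPM for Boc. The 412 cells of mixed clusters had 18.4 CPM for Gli3. The cells that entered no class took no part in any test, and the part of their mitochondrial share in the values was not tested.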

How the results depend on the processing

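Of 2686 values of members under an alternative, 2491 kept their side of the threshold and, where called, their direction, 128 were no longer called, 45 became called, and 22 changed sign with a call in either fit. Calls held under all alternatives for 12 of 21 age changes, 46 of 64 class differences, 9 of 17 differences of age change and 6 of 10 subtype differences. P60 Schwann cells were few (74 to 185 per library), which limits the precision of their values, and the P1 fibroblast classes depended on the clustering. A P1 cluster led by Agtr2, 1113 of the 1909 epineurial cells, held 4 epineurial and 2 perineurial markers. In the 3 other clusterings the cluster led by Agtr2 held 3 and 2 and took no layer name. With a total of 100000 and with pathway genes kept, a P1 perineurial cluster held 978 and 1017 cells. The cause was not tested for any of these moves.

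Counts of members called with age moved for Schwann cells from 2 to 1 with pathway genes kept in the clustering, for endothelial cells from 1 to 2 with a normalization total of 100000 and 3 with no filter, for epineurial cells from 5 to 3 with a total of 100000 and with seed 2, and for immune cells from 2 to 1 without the highest doublet scores, 1 without cells holding tracer UMIs and 4 with no filter. Differences of age change moved for Schwann cells against fibroblasts from 1 to 0 with a total of 100000 and with seed 2, for endoneurial against epineurial cells from 2 to 1 with no filter, and for perineurial against endoneurial cells from 5 to 3 with a total of 100000 and 2 without the P1 proliferating clusters. Subtype counts of mural cells moved with no filter from 1 to 3 at P1 and from 3 to 5 at P60. Shares that did not overlap moved from 22 to 45 with no thinning.

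Leaving out 1 library in turn gave 0 to 3 members called with age in Schwann, 2 to 4 in endoneurial, 2 to 2 in endothelial, 0 to 2 in immature or non-myelinating and 0 to 1 in myelinating cells. It gave 3 to 5 between perineurial and endoneurial cells at P1, 2 to 4 for Schwann cells against the other classes at P60, 3 to 4 between Schwann subtypes at P1, and 1 to 2 at P1 and 1 to 3 at P60 between mural subtypes. For differences of age change it gave 0 to 1 for Schwann cells against fibroblasts, 1 to 2 for endoneurial against epineurial and 3 to 5 for perineurial against endoneurial cells, and 27 to 34 shares that did not overlap. The counts over all genes moved by over 1.5 times for Schwann cells with age, from 4390 to 2691 to 2784 without a P1 library, for myelinating cells from 2367 to 1340 to 1416 and for immature or non-myelinating cells from 3091 to 1992 to 2038 without a P1 library and 1952 without P60 replicate 3, and for the P60 mural subtypes from 2010 to 1257 without P60 replicate 3. Without a P1 library fewer genes were tested, 6284 to 6291 in place of 11243 in Schwann cells.

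Values that changed sign were Boc in epineurial cells with age (0.040, 0.038 and 0.040 in 3 other clusterings), Gas1 in perineurial cells with age (-0.18 with pathway genes kept), and Ptch1 in perineurial cells with age (-0.24 without P60 replicate 3, in a range of -0.24 to 0.31 over left-out libraries, and -0.67 without the cluster it leads). With a total of 100000 or pathway genes kept, perineurial against endoneurial cells at P1 gave 1.82 and 2.18 for Gas1, which was 1.16 without the P1 proliferating clusters, and with pathway genes kept 2.56 for Dhh, and 2.77 for Dhh against epineurial cells. Differences of age change that changed sign were Ptch1 of endoneurial against epineurial cells (-0.74, -0.67 and -0.71 in 3 clusterings), Gas1 of perineurial cells against endoneurial (-0.064 and -0.61) and epineurial cells (-0.38 and -0.79), Ptch1 of perineurial cells without the cluster it leads against endoneurial (-0.58) and epineurial cells (-0.56), the latter also with a total of 100000 (-0.92), and Dhh of perineurial against epineurial cells with pathway genes kept (-3.10). The cluster led by Ptch1 was chosen for its high Ptch1 and left out at P60 only, so the lower Ptch1 values without it follow from that choice.

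With the replicate number as a block, the age calls of members went from 21 to 23, endothelial cells had 2 in place of 1, and Boc in endoneurial cells was the 1 call lost. A library correlated best with its own number in 0 of 3 pairs for immune cells, 1 for Schwann and mural cells, 2 for endoneurial cells and 3 for perineurial, epineurial and endothelial cells.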
